A study of Mus musculus with 12 samples.

Results

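The genes that encode the ligands, receptors and regulators of WNT signaling were followed in whole mammary tumors of PyMT mice. A gene was taken as a member when its symbol named a numbered Wnt or Fzd gene, an Sfrp gene from 1 to 5 or a Dkk gene from 1 to 4. Frzb, Wif1, Lrp5, Lrp6, Axin1, Axin2, Lgr4, Lgr5, Rnf43, Znrf3, Rspo1, Rspo2, Rspo3, Ctnnb1, Tcf7, Tcf7l1, Tcf7l2 and Lef1 were added by name. By this rule 55 of the 21960 listed genes were members, and all 55 are annotated as protein coding on the mm10 build.

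RNA was sequenced from 12 tumors, 3 in each of 4 treatment groups. All tumors came from female C57BL/6 mice that carry the polyoma middle T oncogene under the MMTV promoter, so the oncogene is present in the controls too. The age of the mice at sampling is not given in the sources used here, nor whether the 3 tumors of a group came from 3 mice, so p-values measure only the spread between tumors. The sequenced tissue was unsorted, snap-frozen tumor, which can hold stroma, vessels and leukocytes beside the tumor epithelium. The IgG1 and anti-PD-1 groups received the control antibody or the antibody against PD-1 at 20 mg/kg and then at 10 mg/kg, starting when the first tumor measured 0.6 cm. The DOX/IgG1 and DOX/anti-PD-1 groups received doxorubicin at 5 mg/kg each week for 5 weeks with the same antibodies at 10 mg/kg on the day after, starting when the first tumor measured 1 cm. Tumors with and without doxorubicin therefore also differed in starting size, first antibody dose and schedule, and these cannot be told apart from doxorubicin.

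WNT proteins are secreted, lipid-modified ligands that bind Frizzled receptors together with the co-receptors LRP5 and LRP6. In the canonical branch this binding stops the destruction of beta-catenin, which then enters the nucleus and activates genes with TCF/LEF factors, whereas other branches act on cell shape and movement without beta-catenin. In the mammary gland the pathway maintains stem and basal cells, and Wnt1 was found as a gene that mouse mammary tumor virus activates by integrating beside it.

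Levels are given as TPM (transcripts, corrected for their length, out of a fixed total per tumor), so levels of different genes can be compared. The listed values summed to between 609418 and 725506 TPM per tumor, so the listed genes do not hold the whole of that total, and read depth is unknown. Of the 55 members, 34 were above 0 in all 12 tumors, 16 were listed at 0 in some tumors and 5 were at 0 in every tumor. In 3 or more of the 12 tumors 41 members had 1 TPM or above, and 25 had it in all 12. The mean over the 12 tumors was at least 100 TPM for 3 members, Ctnnb1, Lrp6 and Rnf43, and at least 10 TPM for 19.

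Before the groups are compared, 1 tumor needs mention. DOX/IgG1 replicate 1 lay more than 1 log2 unit above or below both other tumors of its group for 2609 of 14735 genes (17.7%), whereas the same share was between 3.56% and 11.0% in the other 11 tumors. Among the 41 members it stood apart in this way for 7 (17.1%), above its group for Wif1, Lrp6 and Tcf7l1 and below it for Wnt5a, Wnt4, Fzd1 and Fzd4. DOX/anti-PD-1 replicate 3 stood apart for 6 members and IgG1 replicate 1 and DOX/anti-PD-1 replicate 2 for 5 each. The column header of DOX/IgG1 replicate 1 is also the one that carries the word test, and the headers of the DOX/anti-PD-1 group end in another suffix than those of the other groups. What these marks mean is not given, and any difference in handling behind the suffix cannot be told apart from the DOX/anti-PD-1 treatment. Where leaving out this or any other single tumor turned or moved by more than 1.5 times a log2 fold change of a pathway gene given here, the value without that tumor is added.

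**Figure D1:**
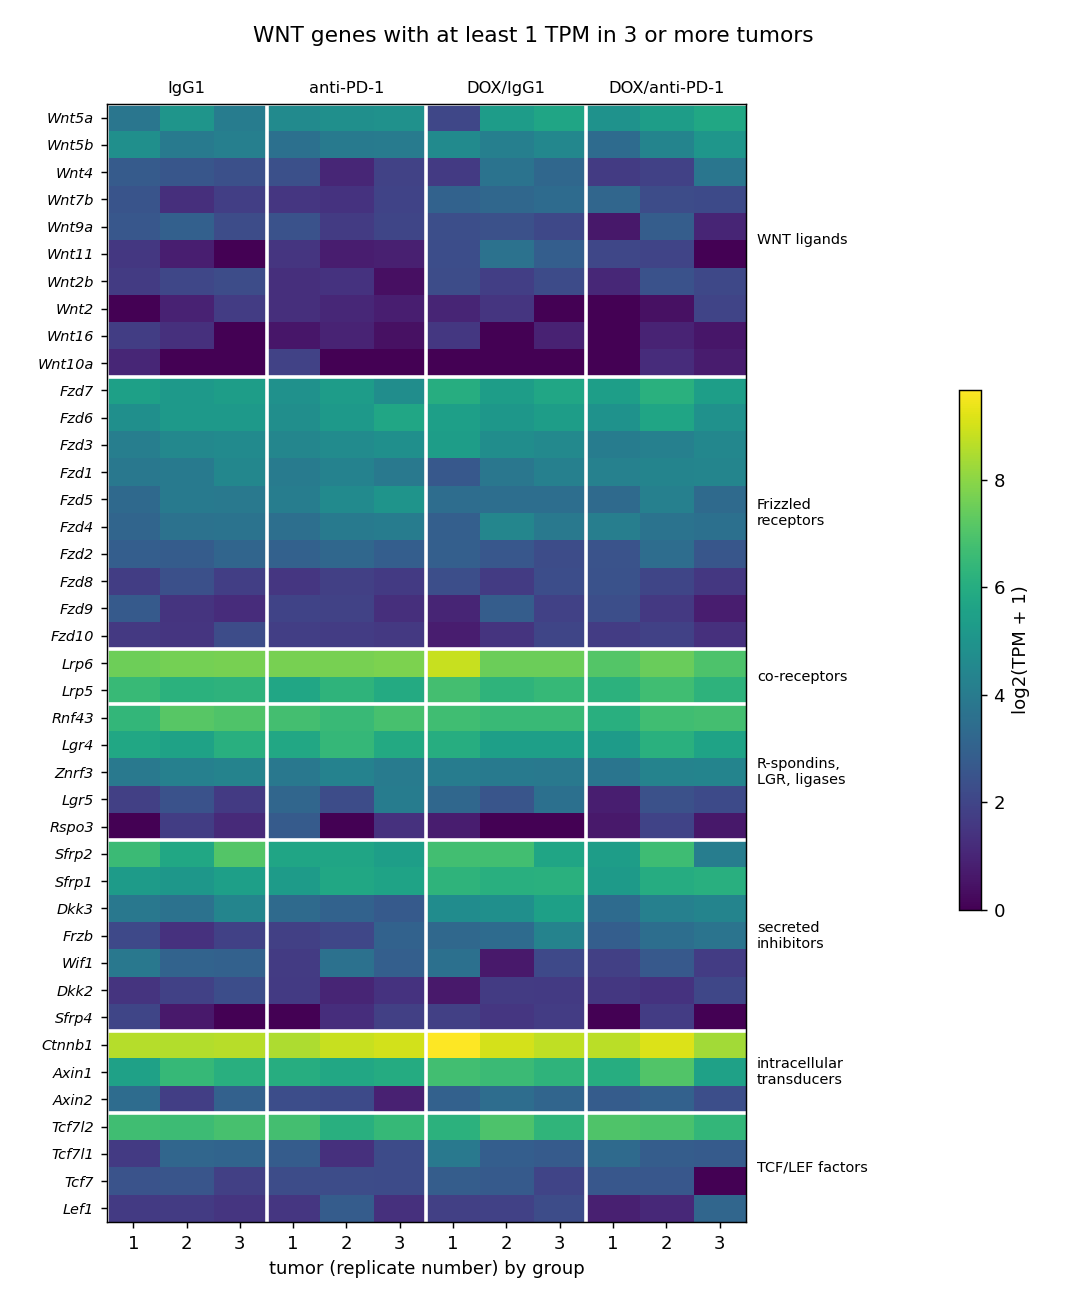
Level of each of the 41 members with at least 1 TPM in 3 or more tumors, as log2(TPM + 1), in each of the 12 tumors (columns, by group and replicate number), with members grouped by role. Ctnnb1 and Lrp6 have the brightest colors, DOX/IgG1 replicate 1 is brighter than the other 11 tumors for both, and it is darker than they are for Wnt5a.

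Of the 19 WNT ligands, Wnt1, Wnt3a and Wnt7a were listed at 0 in every tumor, and 9 ligands in all stayed below 1 TPM in at least 10 of the 12 tumors. The most abundant ligand was Wnt5a, which is best known for signaling without beta-catenin, with a mean of 29.8 TPM. Wnt5a was listed at 12.9, 32.1 and 15.8 TPM in the IgG1 tumors, at 24.0, 27.1 and 28.6 TPM in the anti-PD-1 tumors, at 3.15, 40.1 and 50.9 TPM in the DOX/IgG1 tumors and at 29.2, 40.5 and 53.3 TPM in the DOX/anti-PD-1 tumors. All 3 DOX/anti-PD-1 tumors were above all 3 anti-PD-1 tumors, while DOX/IgG1 held both the lowest tumor of the 12 and 2 tumors above every IgG1 tumor. The log2 fold change on the log2(TPM + 1) scale was 0.57 ± 0.28 (SE) for doxorubicin under anti-PD-1 (limma adjusted p = 0.607), and 0.36 ± 0.27 without DOX/anti-PD-1 replicate 3. Between DOX/IgG1 and IgG1 it was 0.07 ± 0.87, or 1.22 ± 0.40 without DOX/IgG1 replicate 1. That value was 0.44 without IgG1 replicate 2 and between -0.60 and -0.05 without each of the other 4 tumors in turn, so its sign turns with single tumors.

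Wnt7b (chr15:85535437-85582473), a ligand made by epithelium, had a lower level. It was listed at 4.66, 1.47 and 2.44 TPM in IgG1, 1.90, 1.65 and 2.90 TPM in anti-PD-1, 7.24, 8.30 and 9.39 TPM in DOX/IgG1 and 8.17, 3.74 and 3.46 TPM in DOX/anti-PD-1. Each doxorubicin group lay above the group with the same antibody with no overlap, and the only tumor without doxorubicin above the lowest treated tumors was IgG1 replicate 1. The log2 fold change was 1.35 ± 0.44 under IgG1 (adjusted p = 0.534) and 0.90 ± 0.45 under anti-PD-1 (adjusted p = 0.616) by limma, the latter being 0.57 ± 0.45 without DOX/anti-PD-1 replicate 1.

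Wnt11 (chr7:98835112-98855195), a ligand that acts mostly without beta-catenin, had 3.88, 11.5 and 6.44 TPM in the DOX/IgG1 tumors, against 1.94, 0.74 and 0 TPM in IgG1. In anti-PD-1 it was at 1.83, 0.70 and 0.82 TPM and in DOX/anti-PD-1 at 3.20, 2.92 and 0 TPM. The DOX/IgG1 tumors were thus above the 9 others, and in IgG1 and DOX/anti-PD-1 replicate 3 the gene was listed at 0. The log2 fold change of DOX/IgG1 over IgG1 was 2.16 ± 0.58, with a 95% interval of 0.85 to 3.47 (limma adjusted p = 0.469). For DOX/anti-PD-1 over DOX/IgG1 it was -1.60 ± 0.68 (limma adjusted p = 0.988), or -0.92 ± 0.56 without DOX/anti-PD-1 replicate 3. With a pseudocount of 0.1 in place of 1 these comparisons of Wnt11 gave 3.60 and -2.75.

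In the fit over all 12 tumors, 6 members were higher with doxorubicin at an unadjusted limma p below 0.05, and 0 were called. The promoter of Wnt11 is shown because Wnt11, Fzd7 and Frzb are those of the 6 with a promoter in the RefSeq table used here. Of the 55 members, 36 matched that table by symbol, with 46 promoters of 300 bases that run from 250 bases before to 50 bases after a start. The TCF/LEF motif CTTTGAT was searched on both strands (ATCAAAG on the other strand). It was present in 2 of the 46 member promoters (4.35%), 1 of Wnt11 and 1 of Wnt5b, and in 1225 of all 32851 promoters (3.73%), which describes the letters and not a bound site. The median share of G and C was 67.0% in the member promoters and 52.7% in all promoters. The promoter at the upstream start of Wnt11 lies at chr7:98834862-98835161 on the plus strand of GRCm38.p6 and has the motif, in capitals, at position -51 from the start, with 71.3% G and C. The other Wnt11 promoter, at chr7:98838595-98838894, does not hold these letters.
Wnt11: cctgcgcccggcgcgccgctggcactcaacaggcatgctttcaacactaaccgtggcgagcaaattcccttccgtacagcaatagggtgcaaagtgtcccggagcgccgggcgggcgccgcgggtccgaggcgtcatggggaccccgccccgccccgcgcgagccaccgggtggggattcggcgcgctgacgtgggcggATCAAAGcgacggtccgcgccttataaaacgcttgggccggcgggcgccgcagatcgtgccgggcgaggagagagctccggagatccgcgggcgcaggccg

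Among the remaining ligands, Wnt5b was the most abundant, with a mean of 18.5 TPM. Wnt4, a ligand of the progesterone response in mammary epithelium, had a mean of 5.26 TPM and ranged from 1.03 TPM in anti-PD-1 replicate 2 to 13.1 TPM in DOX/anti-PD-1 replicate 3. Wnt2b was at 2.22, 3.18 and 3.72 TPM in IgG1, 1.45, 1.67 and 0.33 TPM in anti-PD-1, 3.77, 2.48 and 3.67 TPM in DOX/IgG1 and 1.11, 4.42 and 3.33 TPM in DOX/anti-PD-1. The anti-PD-1 tumors were all below the IgG1 tumors, with a log2 fold change of -0.96 ± 0.46 (limma adjusted p = 0.996; -1.54 with a pseudocount of 0.1), and the DOX/IgG1 tumors were in the range of IgG1 or just above it. Wnt9a had a mean of 3.72 TPM, and Wnt2, Wnt16, Wnt10a, Wnt8b, Wnt6, Wnt10b, Wnt8a, Wnt3 and Wnt9b had means between 0.010 and 1.06 TPM.

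All 10 Frizzled receptors were expressed, with means from 2.20 TPM for Fzd10 to 43.8 TPM for Fzd7, a receptor of basal and stem cells in the mammary gland. Fzd7 was listed at 44.2, 36.8 and 41.1 TPM in IgG1, 28.9, 39.3 and 25.6 TPM in anti-PD-1, 63.9, 40.4 and 51.9 TPM in DOX/IgG1 and 41.9, 70.0 and 41.6 TPM in DOX/anti-PD-1. The anti-PD-1 tumors, of which replicates 1 and 3 were the lowest of the 12, lay below every DOX/anti-PD-1 tumor, whereas DOX/IgG1 and IgG1 overlapped. Fzd7 had log2 fold changes of 0.67 ± 0.29 under anti-PD-1 (adjusted p = 0.563) and 0.33 ± 0.26 under IgG1 (adjusted p = 0.786) by limma. The former was 0.43 ± 0.29 without DOX/anti-PD-1 replicate 2, and the latter 0.17 ± 0.26 without DOX/IgG1 replicate 1 and 0.49 ± 0.29 without DOX/IgG1 replicate 2. Its promoter, at chr1:59481897-59482196 on the plus strand of GRCm38.p6, does not hold CTTTGAT and is given for comparison with that of Wnt11.
Fzd7: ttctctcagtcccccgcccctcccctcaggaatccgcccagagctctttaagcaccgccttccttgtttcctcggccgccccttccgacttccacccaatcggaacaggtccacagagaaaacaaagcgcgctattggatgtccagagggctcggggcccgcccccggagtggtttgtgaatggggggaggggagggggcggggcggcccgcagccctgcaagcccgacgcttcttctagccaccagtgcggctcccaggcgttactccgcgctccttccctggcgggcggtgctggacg

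Fzd5, a receptor for canonical ligands and for Wnt5a, had its highest mean in the anti-PD-1 group, with 16.3, 23.7 and 30.9 TPM. The IgG1 tumors had 8.80, 15.0 and 14.1 TPM, the DOX/IgG1 tumors 9.86, 10.2 and 10.4 TPM and the DOX/anti-PD-1 tumors 9.13, 17.6 and 9.05 TPM. All anti-PD-1 tumors exceeded all IgG1 tumors, and of the 6 tumors with doxorubicin DOX/anti-PD-1 replicate 2 alone reached the anti-PD-1 range. The log2 fold change of anti-PD-1 over IgG1 was 0.84 ± 0.33 (limma adjusted p = 0.996), and that of doxorubicin over both antibodies was -0.60 ± 0.26 (limma adjusted p = 0.367). With each antibody alone Fzd5 was lower with doxorubicin too. The unadjusted limma p was 0.028 under anti-PD-1 and 0.466 under IgG1 (adjusted p = 0.533 and 0.869).

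The second most abundant Frizzled gene was Fzd6, a receptor tied to tissue polarity, with 26.9, 36.7 and 36.4 TPM in IgG1, 26.6, 36.6 and 52.0 TPM in anti-PD-1, 42.9, 34.0 and 40.3 TPM in DOX/IgG1 and 29.6, 50.2 and 28.9 TPM in DOX/anti-PD-1. These ranges overlapped in every pair of groups. Fzd3, another receptor of the polarity branch, was at 16.6, 21.9 and 23.6 TPM in IgG1, 20.8, 24.5 and 27.5 TPM in anti-PD-1, 40.3, 25.8 and 22.6 TPM in DOX/IgG1 and 15.8, 17.4 and 21.5 TPM in DOX/anti-PD-1. The DOX/anti-PD-1 tumors were all below the DOX/IgG1 tumors, with a log2 fold change of -0.64 ± 0.32 (limma adjusted p = 0.988), or -0.40 ± 0.31 without DOX/IgG1 replicate 1, the highest of the 12. Fzd1 had 5.28, 13.3 and 17.7 TPM in DOX/IgG1 and 17.9, 19.8 and 20.1 TPM in DOX/anti-PD-1, against 13.7, 14.8 and 21.5 TPM in IgG1 and 15.2, 18.4 and 13.9 TPM in anti-PD-1. The DOX/anti-PD-1 tumors lay above DOX/IgG1 by 0.77 ± 0.44 on the log2 scale (limma adjusted p = 0.988), which became 0.31 ± 0.32 without DOX/IgG1 replicate 1, the lowest of the 12. The other 5 Frizzled genes, Fzd4, Fzd2, Fzd8, Fzd9 and Fzd10, had means between 2.20 and 12.7 TPM.

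Both co-receptors ranked among the 5 most abundant members. Lrp6 was listed at 184, 202 and 205 TPM in IgG1, 208, 204 and 216 TPM in anti-PD-1, 459, 181 and 178 TPM in DOX/IgG1 and 135, 175 and 124 TPM in DOX/anti-PD-1. The 6 tumors without doxorubicin were close together, DOX/IgG1 replicate 1 stood far above all others, and the DOX/anti-PD-1 tumors were the lowest 3 of the 12. Under anti-PD-1 doxorubicin had a log2 fold change of -0.54 ± 0.22, with a 95% interval of -1.03 to -0.06 (limma adjusted p = 0.54). For DOX/anti-PD-1 over DOX/IgG1 it was -0.77 ± 0.38, and -0.32 ± 0.25 without DOX/IgG1 replicate 1. Lrp5 had 90.2, 70.9 and 75.9 TPM in IgG1, 52.0, 77.9 and 59.8 TPM in anti-PD-1, 108, 77.2 and 87.7 TPM in DOX/IgG1 and 72.9, 103 and 75.2 TPM in DOX/anti-PD-1, and the groups of each comparison overlapped.

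R-spondins strengthen WNT signaling by binding LGR receptors, which takes the ubiquitin ligases RNF43 and ZNRF3 away from Frizzled. The R-spondins themselves were scarce. Rspo1 was at 0 in 7 tumors and reached 8.65 TPM in DOX/IgG1 replicate 1 and 6.20 TPM in DOX/anti-PD-1 replicate 2, Rspo3 was at most 5.86 TPM, and Rspo2 was above 0 only in anti-PD-1 replicate 1. Rnf43 was abundant, with 84.2, 141 and 129 TPM in IgG1, 109.7, 94.2 and 114 TPM in anti-PD-1, 104, 92.5 and 91.9 TPM in DOX/IgG1 and 67.6, 105 and 110.5 TPM in DOX/anti-PD-1. Lgr4, the broadly expressed receptor of the LGR family, had 52.8, 46.8 and 66.9 TPM in IgG1, 54.4, 86.3 and 58.4 TPM in anti-PD-1, 63.6, 43.3 and 43.2 TPM in DOX/IgG1 and 38.7, 69.0 and 47.7 TPM in DOX/anti-PD-1. Neither gene parted the groups of any comparison. Znrf3 had a mean of 16.1 TPM.

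Lgr5 (chr10:115450311-115587780), a stem cell receptor and a target of beta-catenin, is the other LGR gene among the members. It was listed at 2.52, 4.35 and 2.15 TPM in IgG1, 8.11, 3.71 and 15.8 TPM in anti-PD-1, 8.37, 4.85 and 11.0 TPM in DOX/IgG1 and 0.77, 4.21 and 3.50 TPM in DOX/anti-PD-1. The DOX/IgG1 tumors lay above all IgG1 and all DOX/anti-PD-1 tumors, while anti-PD-1 and DOX/anti-PD-1 overlapped. Doxorubicin went with a log2 fold change of 1.16 ± 0.45 under IgG1 (limma adjusted p = 0.597) and of -1.37 ± 0.59 under anti-PD-1 (limma adjusted p = 0.562), which was -0.89 ± 0.56 without DOX/anti-PD-1 replicate 1. The difference between these effects, tested as the interaction in all 12 tumors, was -2.53 ± 0.77 with a 95% interval of -4.19 to -0.87, and the adjusted p was 0.993 by limma.

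Secreted inhibitors bind WNT proteins (the SFRP family, Frzb and Wif1) or the co-receptors (Dkk1, Dkk2 and Dkk4), and Dkk3 is a divergent member of the latter family. Dkk1 and Dkk4 were listed at 0 in every tumor, and Sfrp5 stayed at or below 1.76 TPM. In tumor tissue these genes are often made by fibroblasts or basal cells, and in bulk RNA fewer cells of a type and less RNA per cell cannot be told apart. Frzb (chr2:80411970-80447625) was listed at 3.38, 1.58 and 2.66 TPM in IgG1, 2.55, 3.19 and 7.17 TPM in anti-PD-1, 8.63, 9.42 and 19.3 TPM in DOX/IgG1 and 6.42, 10.2 and 12.2 TPM in DOX/anti-PD-1. The group means were 2.54 ± 0.906 and 4.30 ± 2.50 TPM (SD, n = 3) without doxorubicin and 12.4 ± 5.93 and 9.60 ± 2.92 TPM with it. Every DOX/IgG1 tumor was above every IgG1 tumor, and of the tumors without doxorubicin only anti-PD-1 replicate 3 exceeded a treated tumor, DOX/anti-PD-1 replicate 1. Doxorubicin gave log2 fold changes of 1.87 ± 0.45 under IgG1 (adjusted p = 0.46) and 1.06 ± 0.44 under anti-PD-1 (adjusted p = 0.549) by limma. The Frzb promoter, at chr2:80447347-80447646 on the minus strand of GRCm38.p6, does not hold CTTTGAT.
Frzb: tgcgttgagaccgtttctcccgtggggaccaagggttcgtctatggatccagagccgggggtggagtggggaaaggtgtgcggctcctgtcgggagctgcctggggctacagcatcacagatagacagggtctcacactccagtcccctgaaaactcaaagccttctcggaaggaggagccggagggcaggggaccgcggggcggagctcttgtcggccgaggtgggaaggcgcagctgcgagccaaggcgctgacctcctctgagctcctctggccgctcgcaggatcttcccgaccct

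Dkk3 (chr7:112116017-112159057) parted the groups of all 4 pairs but was called in none. It was at 13.6, 11.5 and 20.2 TPM in IgG1, 9.07, 7.16 and 5.62 TPM in anti-PD-1, 25.2, 26.9 and 44.1 TPM in DOX/IgG1 and 9.29, 17.6 and 19.3 TPM in DOX/anti-PD-1. Each doxorubicin group was above its antibody control and each anti-PD-1 group was below its IgG1 counterpart, without overlap in any of the 4 pairs. Doxorubicin had a log2 fold change of 1.03 ± 0.34 under IgG1 (adjusted p = 0.547) and 0.95 ± 0.37 under anti-PD-1 (adjusted p = 0.533) by limma. That of anti-PD-1 was -0.95 ± 0.34 without doxorubicin (adjusted p = 0.996) and -1.03 ± 0.37 with it (adjusted p = 0.988) by limma. These 4 comparisons share groups and are not independent of each other. Of all genes, 9.31% under IgG1 and 11.1% under anti-PD-1 were higher with doxorubicin without overlap. Lower with anti-PD-1 without overlap were 6.24% without doxorubicin and 5.95% with it. How many of all genes part all 4 pairs was not counted.

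Sfrp1 was at 38.7, 33.7 and 43.5 TPM in IgG1, 38.3, 53.1 and 47.4 TPM in anti-PD-1, 77.0, 67.0 and 70.4 TPM in DOX/IgG1 and 37.6, 63.1 and 67.1 TPM in DOX/anti-PD-1. The DOX/IgG1 tumors were close to each other and above all IgG1 tumors, with a log2 fold change of 0.88 ± 0.23 and a 95% interval of 0.36 to 1.39 (limma adjusted p = 0.46). Under anti-PD-1 the groups overlapped because DOX/anti-PD-1 replicate 1 was below every anti-PD-1 tumor. Sfrp2, the most abundant inhibitor, was listed at 95.3, 53.5 and 134 TPM in IgG1, 50.8, 50.9 and 42.2 TPM in anti-PD-1, 106, 107 and 50.1 TPM in DOX/IgG1 and 40.7, 99.8 and 16.0 TPM in DOX/anti-PD-1. The anti-PD-1 tumors were all below the IgG1 tumors, with a log2 fold change of -0.87 ± 0.32 (limma adjusted p = 0.996), or -0.57 ± 0.32 without IgG1 replicate 3, and the other groups spread widely. Wif1 ranged from 0.57 TPM in DOX/IgG1 replicate 2 to 13.7 TPM in IgG1 replicate 1, and Dkk2 and Sfrp4 had means of 2.08 and 1.39 TPM.

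**Figure D2:**
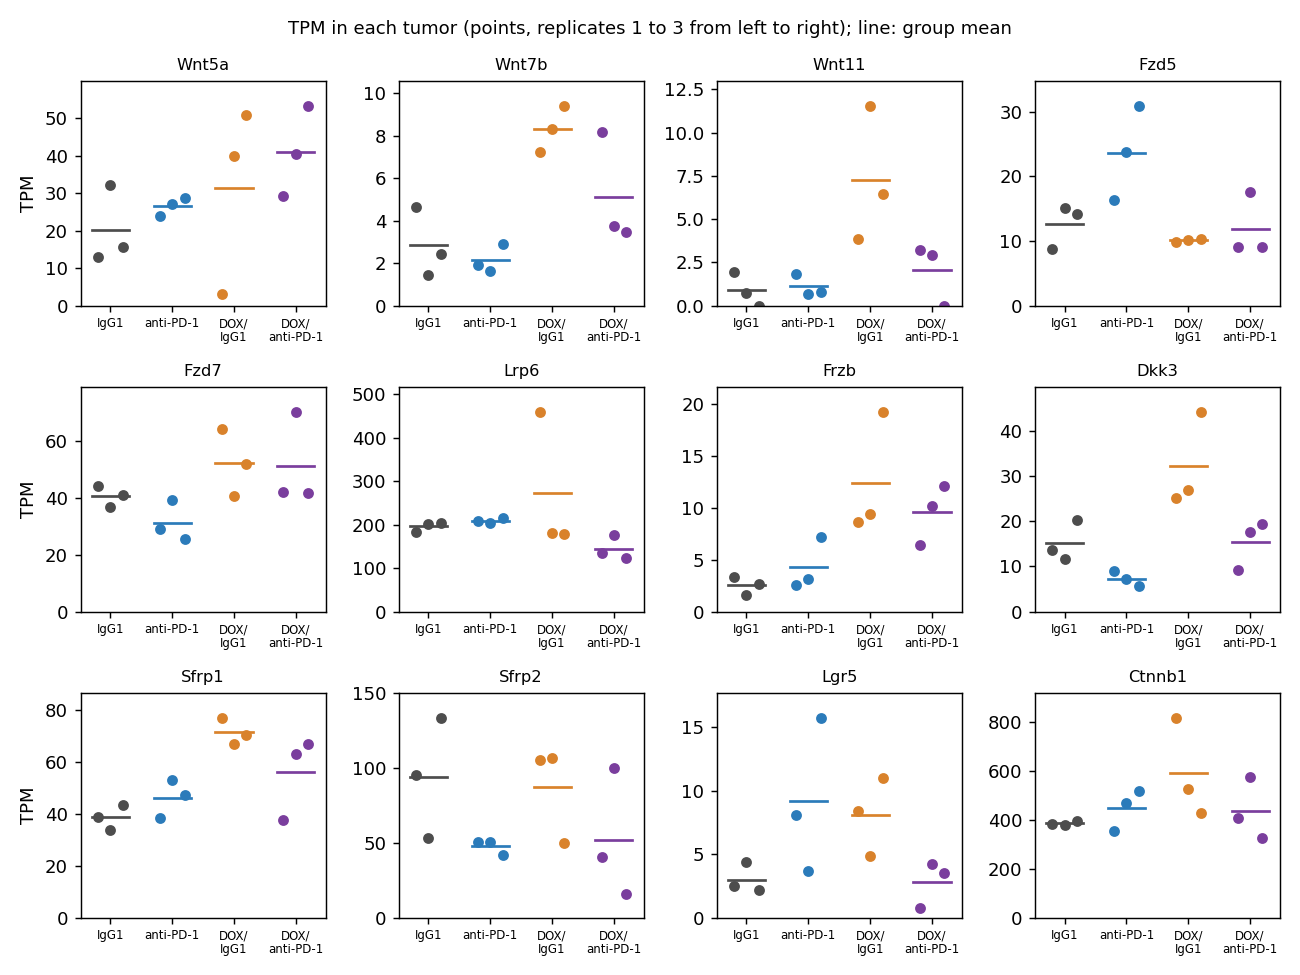
TPM (vertical axes, from 0) of 12 members in each tumor, with the 3 tumors of a group as points and the group mean as a line. Frzb lies between 6.42 and 19.3 TPM with doxorubicin and between 1.58 and 7.17 TPM without it, and a single DOX/IgG1 tumor sets the top for Lrp6 and Ctnnb1 and the bottom for Wnt5a.

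Ctnnb1, which encodes beta-catenin, was the most abundant member. It was listed at 384, 378 and 395 TPM in IgG1, 355, 469 and 518 TPM in anti-PD-1, 816, 525 and 428 TPM in DOX/IgG1 and 406, 574 and 323 TPM in DOX/anti-PD-1. The DOX/IgG1 tumors were above the 3 IgG1 tumors, which were nearly equal, and the other groups overlapped with both. Between DOX/IgG1 and IgG1 the log2 fold change was 0.56 ± 0.28 (limma adjusted p = 0.684), and 0.30 ± 0.23 without DOX/IgG1 replicate 1. Beta-catenin is known to be controlled mainly through breakdown of the protein, which RNA does not measure. Axin1, a scaffold of the destruction complex, was at 45.7, 87.7 and 68.6 TPM in IgG1, 64.8, 54.8 and 61.7 TPM in anti-PD-1, 105, 95.5 and 77.9 TPM in DOX/IgG1 and 64.7, 131 and 45.5 TPM in DOX/anti-PD-1, with overlap in each comparison.

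Axin2, a scaffold that beta-catenin induces and a common readout of canonical signaling, was at 9.66, 2.47 and 6.92 TPM in IgG1, 3.88, 3.56 and 0.83 TPM in anti-PD-1, 6.94, 10.1 and 7.97 TPM in DOX/IgG1 and 6.01, 7.07 and 4.04 TPM in DOX/anti-PD-1. All DOX/anti-PD-1 tumors were above the anti-PD-1 tumors, while the IgG1 tumors spread over most of the range. Its log2 fold change was 0.94 ± 0.49 under anti-PD-1 (adjusted p = 0.618) and 0.48 ± 0.48 under IgG1 (adjusted p = 0.833) by limma. The former was 0.48 ± 0.47 without anti-PD-1 replicate 3, and the latter 0.82 ± 0.50 without IgG1 replicate 1 and 0.01 ± 0.44 without IgG1 replicate 2.

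Of the TCF/LEF factors, Tcf7l2 had by far the highest level, with 103, 97.0 and 115 TPM in IgG1, 110.0, 68.2 and 87.9 TPM in anti-PD-1, 73.4, 125 and 80.2 TPM in DOX/IgG1 and 127, 117 and 84.0 TPM in DOX/anti-PD-1. No comparison parted its groups. Tcf7, which T cells also express, was at 4.60, 4.86 and 2.52 TPM in IgG1, 3.76, 3.70 and 3.62 TPM in anti-PD-1, 6.14, 5.63 and 2.91 TPM in DOX/IgG1 and 5.24, 5.11 and 0 TPM in DOX/anti-PD-1. Lef1 had 2.16, 2.18 and 1.81 TPM in IgG1, 1.86, 5.97 and 1.52 TPM in anti-PD-1, 2.58, 2.62 and 3.76 TPM in DOX/IgG1 and 0.81, 1.16 and 8.17 TPM in DOX/anti-PD-1. For Tcf7 all groups overlapped, and for Lef1 the DOX/IgG1 tumors lay just above IgG1, by 0.38 ± 0.43 on the log2 scale (limma adjusted p = 0.85), or 0.24 ± 0.52 without DOX/IgG1 replicate 3. Tcf7l1 ranged from 1.55 to 14.0 TPM, the highest value being that of DOX/IgG1 replicate 1.

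The effect of doxorubicin was then counted over all members. A member was tested when it had at least 1 TPM in 3 or more of the tumors compared, and called at a limma adjusted p below 0.1 over all genes tested with an absolute log2 fold change above 1. In DOX/IgG1 against IgG1, 39 of the 55 members were tested and 0 were called, against 5 of 13874 genes tested (0.0360%). At an unadjusted p below 0.05 there were 6 members of 39 (15.4%), against 7.73% of all genes. Groups that did not overlap were found for 8 members that were higher with doxorubicin (20.5%, against 9.31% of all genes), namely Wnt11, Frzb, Wnt7b, Lgr5, Dkk3, Sfrp1, Ctnnb1 and Lef1, and for 0 members that were lower (4.64% of all genes). The median log2 fold change was 0.19 over the 39 members and 0.12 over all genes tested. Without DOX/IgG1 replicate 1 these medians were 0.065 and 0.152, the members' now being the lower, and 122 genes but again 0 members were called. The 5 called genes, named here after their values were seen, were the salivary genes Smr3a and Bpifa2, both listed at 0 in all IgG1 tumors, the acute-phase genes Saa1 (-2.88 ± 0.33 on the log2 scale) and Saa2 (-2.58 ± 0.29), and the histone gene Hist1h2af (-6.08 ± 0.53). All 5 were among the 122, whereas 0 genes were called without IgG1 replicate 1, 2 or 3 or without DOX/IgG1 replicate 3, and 2 without DOX/IgG1 replicate 2. With the replicate block only Hist1h2af of the 5 was called, and with all 12 tumors in 1 fit only Hist1h2af was lost.

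In DOX/anti-PD-1 against anti-PD-1, 0 of 39 tested members were called by limma, as were 0 of 13736 genes (0.00%). At an unadjusted p below 0.05 there were 6 members (15.4%), against 8.63% of all genes. These were Dkk3, Frzb and Fzd7, which were higher, and Fzd5, Lrp6 and Lgr5, which were lower. Wnt5a, Fzd7, Wnt7b, Axin2 and Dkk3 were higher without overlap (5 members or 12.8%, against 11.1% of all genes), and Lrp6 was lower (1 member or 2.56%, against 3.84% of all genes), shares near those of all genes. This comparison and the one under IgG1 share no tumor. The median log2 fold change was -0.06 over the members and 0.11 over all genes. With 1 tumor left out the members' median was from -0.008 to 0.13, above 0 without anti-PD-1 replicate 2 or 3 or DOX/anti-PD-1 replicate 1 or 3, and it was 0.101 at a minimum of 5 TPM, so its sign is not stable. Scaling by the median of ratios moved the median of all genes by -0.11 in this comparison and by -0.10 in that under IgG1, and the members' medians became -0.146 here and 0.108 under IgG1. Under that scaling the log2 fold changes given here for members in these comparisons kept their sign, with 1.77 for Frzb and 1.25 for Wnt7b under IgG1, except that of Wnt5a under IgG1, which became -0.03.

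**Figure D3:**
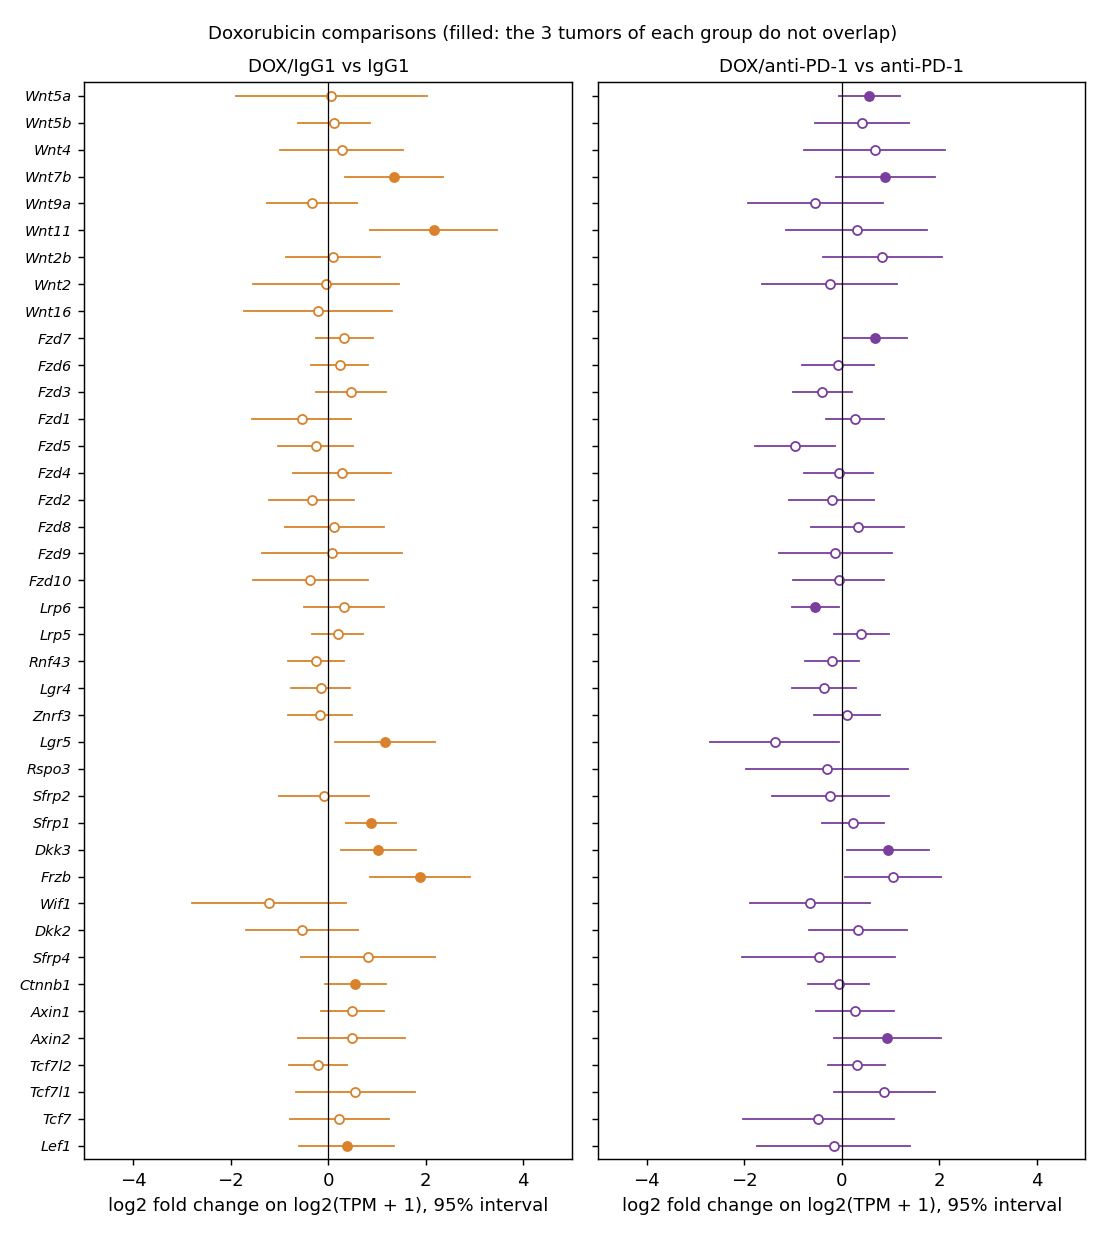
Log2 fold change on the log2(TPM + 1) scale (horizontal axes) with its 95% interval for each tested member, for DOX/IgG1 against IgG1 (left) and DOX/anti-PD-1 against anti-PD-1 (right). Filled points mark members whose 3 tumors per group do not overlap, 8 on the left and 6 on the right.

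In the fit of doxorubicin over both antibodies, with 6 tumors on each side, 41 members were tested and 0 were called by limma, against 3 of 14735 genes (0.0204%). These 3, named after their values were seen, were Gas6 (1.05 ± 0.16), St3gal4 (1.49 ± 0.22) and Col27a1 (1.77 ± 0.28 on the log2 scale). Of these 3, 0 were called without IgG1 replicate 2 or 3, anti-PD-1 replicate 1, DOX/IgG1 replicate 2 or 3 or DOX/anti-PD-1 replicate 3, 1 (St3gal4) without anti-PD-1 replicate 2, and all 3 without each of the other 5 tumors in turn. With no trend 0 of the 3 were called, and with the replicate block St3gal4 alone. Gas6 was lost after scaling by the median of ratios, and Col27a1 with no minimum on expression. The count of all called genes was from 0 to 27 with a tumor other than DOX/IgG1 replicate 1 left out. At an unadjusted p below 0.05, 6 members were higher (14.6%, against 8.82% of all genes) and 1, Fzd5, was lower (2.44%, against 3.16% of all genes). The 6 were Frzb, Wnt11, Wnt7b, Dkk3, Sfrp1 and Fzd7, of which 3 are secreted inhibitors and 2 are ligands, and the promoters of Wnt11, Fzd7 and Frzb are printed with these genes. Of the 41 members Frzb had the largest log2 fold change, 1.47 ± 0.32 (limma adjusted p = 0.167). Those of Wnt11, Wnt7b and Dkk3 were 1.23 ± 0.49, 1.12 ± 0.30 and 0.99 ± 0.25 (limma adjusted p = 0.341, 0.206 and 0.204). For Wnt11 the groups under anti-PD-1 overlapped (limma adjusted p = 0.911), whereas those under IgG1 did not (limma adjusted p = 0.469). Without DOX/IgG1 replicate 1, 2 members rose past both limits among 212 called genes, Frzb at 1.51 ± 0.34 (limma adjusted p = 0.0661) and Dkk3 at 1.05 ± 0.26 (limma adjusted p = 0.0827). The median over the members was 0.05, against 0.12 over all genes, and after scaling by the median of ratios these were -0.065 and 0.016, so that the sign of the members' median turned. With 1 tumor left out the members' median lay between -0.011 without DOX/anti-PD-1 replicate 2 and 0.134 without DOX/anti-PD-1 replicate 3.

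Of the markers of basal cells and fibroblasts, 0 were called by limma in each comparison of groups and over both antibodies. The 6 markers of basal or myoepithelial cells, of which Cnn1 was the most abundant, summed to 255, 102 and 218 TPM in IgG1, 118, 176 and 145 TPM in anti-PD-1, 152, 347 and 437 TPM in DOX/IgG1 and 218, 256 and 262 TPM in DOX/anti-PD-1. The 6 fibroblast markers, led by Col1a1, summed to 1011, 999 and 1538 TPM, 729, 715 and 565 TPM, 454, 1617 and 1139 TPM and 853, 1199 and 1357 TPM in the same order of groups. Both sums were higher in every DOX/anti-PD-1 tumor than in every anti-PD-1 tumor, with 3 of 6 basal and 3 of 6 fibroblast markers parting these groups. The 5 members Wnt5a, Fzd7, Wnt7b, Axin2 and Dkk3 were higher without overlap too (12.8%, against 11.1% of all genes), a share near that of all genes. Between DOX/IgG1 and IgG1, 0 of the 6 basal markers parted the groups and 5 had a higher mean of log2 values with doxorubicin, and of the 6 fibroblast markers Col1a1 was lower without overlap while 4 had a higher mean. In DOX/IgG1 replicate 1 the fibroblast sum lay below the IgG1 range and the basal sum within it, but there the basal marker Krt14 was the highest of the 12 tumors at 112 TPM, and the basal markers Cnn1, Oxtr and Mylk were the lowest of the 12 at 11.4, 5.64 and 7.18 TPM. None of these markers was at 0 in every tumor, and the part of either cell type in the members' levels was not tested.

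Salivary gland markers were highest in DOX/IgG1, and 2 of the 4 tested, Bpifa2 and Smr3a, were called against IgG1, both calls being lost without any 1 of these 6 tumors but DOX/IgG1 replicate 1 and with the replicate block. That of Smr3a was lost with a pseudocount of 0.1 and at a minimum of 5 TPM too. The sum was 1.17, 4.98 and 3.32 TPM in IgG1, 6.91, 0.55 and 26.0 TPM in anti-PD-1, 39.0, 59.2 and 99.4 TPM in DOX/IgG1 and 7.90, 1.41 and 1.49 TPM in DOX/anti-PD-1, over the 5 of 6 that were listed. Bpifa2, the most abundant, was at 14.4, 21.3 and 53.7 TPM in DOX/IgG1 and listed at 0 in the other 9 tumors, and Smr3a was above 0 in only 1 tumor outside that group. The 5 members Wnt11, Lgr5, Dkk3, Lrp6 and Fzd3 were likewise higher in DOX/IgG1 than in DOX/anti-PD-1 without overlap. That is 13.2% of the members tested, against 5.95% of all genes. Fzd1 was lower (2.63%, against 4.27% of all genes), and a part of salivary tissue in these differences was not tested.

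The 6 adipocyte markers, led by Adipoq, summed to 36.1, 187 and 119.6 TPM in IgG1, 51.0, 44.1 and 81.2 TPM in anti-PD-1, 94.2, 448 and 65.8 TPM in DOX/IgG1 and 509, 119.8 and 122 TPM in DOX/anti-PD-1, higher in each DOX/anti-PD-1 than in each anti-PD-1 tumor, and their part in the results was not tested. Skeletal muscle markers, led by Myl1, summed to between 0.76 TPM in DOX/anti-PD-1 replicate 2 and 927 TPM in DOX/anti-PD-1 replicate 1. The markers of proliferating cells, led by Top2a, were lowest in DOX/IgG1 replicate 2 at 86.2 TPM and highest in DOX/anti-PD-1 replicate 1 at 469 TPM. In DOX/IgG1 all 6 had a lower mean of log2 values than in IgG1, 1 of them without overlap. Luminal markers, led by Epcam, summed to between 1958 and 3669 TPM. In DOX/IgG1 against IgG1, 5 of the 6 had a lower mean of log2 values, and Epcam was lower without overlap, at 565, 522 and 418 TPM against 938, 846 and 954 TPM in IgG1. Markers of endothelium (Pecam1 highest) and leukocytes (Lyz2 highest) summed to between 52.2 and 135 TPM and between 286 and 597 TPM. T cell markers, led by Cd3e, summed to between 5.59 and 49.2 TPM, and all 6 were above 0 in at least 1 tumor. By limma 0 markers of these lists were called in each comparison of groups, and the part of these cells in the members' levels was not tested.

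Every marker list was counted in the same way, by the tested markers with a positive log2 fold change and, in parentheses, the median log2 fold change of the list. With doxorubicin under IgG1 these were 1 of 6 luminal markers (-0.23), 5 of 6 basal (0.19), 4 of 6 fibroblast (0.35), 5 of 6 adipocyte (0.45), 2 of 6 skeletal muscle (-0.30), 2 of 6 endothelial (-0.09), 4 of 5 T cell (0.48), 4 of 4 salivary (2.85), 5 of 6 leukocyte (0.07) and 0 of 6 proliferation (-0.82), where outside the salivary list Epcam, Col1a1, Cdh5 and Top2a were lower and Lyz2 and Cd3g higher without overlap. Under anti-PD-1 they were 3 of 6 luminal markers (-0.04), 6 of 6 basal (0.61), 6 of 6 fibroblast (0.83), 6 of 6 adipocyte (1.43), 3 of 6 skeletal muscle (-0.01), 5 of 6 endothelial (0.19), 2 of 4 T cell (0.48), 0 of 2 salivary (-0.84), 5 of 6 leukocyte (0.27) and 3 of 6 proliferation (0.09), where beside the 3 basal, 3 fibroblast and 4 adipocyte markers that parted the groups Krt19 and Cldn5 were higher without overlap. In the fit of doxorubicin over all 12 tumors, in which 6 members were higher and Fzd5 was lower at an unadjusted p below 0.05, they were 2 of 6 luminal markers (-0.11), 6 of 6 basal (0.47), 4 of 6 fibroblast (0.42), 6 of 6 adipocyte (1.00), 3 of 6 skeletal muscle (-0.05), 4 of 6 endothelial (0.07), 4 of 5 T cell (0.72), 3 of 4 salivary (1.13), 5 of 6 leukocyte (0.22) and 0 of 6 proliferation (-0.41). All 6 basal and all 6 adipocyte markers thus had a positive value there and all 6 proliferation markers a negative one, and their part in the members' values was not tested.

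**Figure D4:**
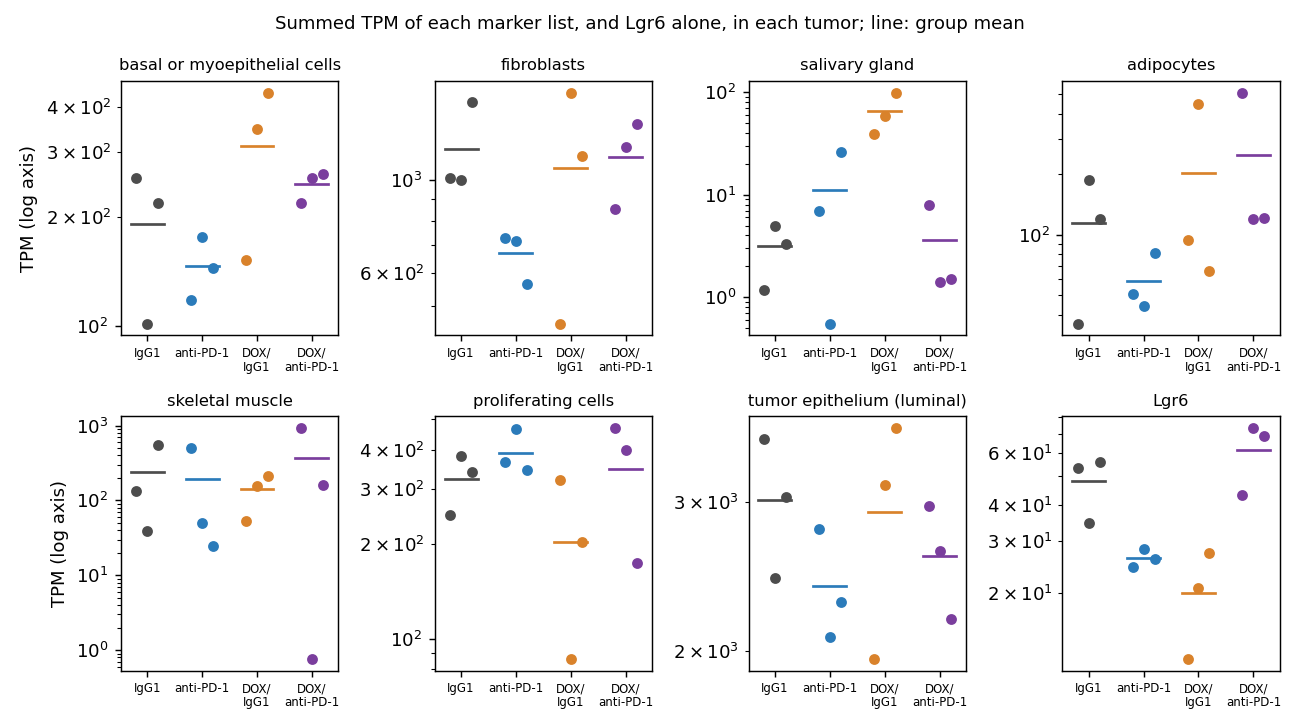
Summed TPM of 7 marker lists, and of Lgr6 alone, in each tumor on logarithmic axes, with group means as lines. Salivary gland markers sum to at least 39.0 TPM in the DOX/IgG1 tumors and to at most 26.0 TPM elsewhere, and the mean of Lgr6 is highest in DOX/anti-PD-1 and lowest in DOX/IgG1.

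For the antibody, anti-PD-1 was set against IgG1 without doxorubicin, which shares the IgG1 tumors with DOX/IgG1 against IgG1. Of 38 tested members 0 were called by limma, as were 0 of 13692 genes (0.00%), and 4 members (10.5%) had an unadjusted p below 0.05, against 4.60% of all genes. Fzd5 was higher without overlap (1 member, 3.64% of all genes), and Wnt2b, Dkk3 and Sfrp2 were lower (3 members or 7.89%, against 6.24% of all genes). The members' median was -0.08, against -0.03 over all genes, and it was -0.175 without IgG1 replicate 1 and -0.02 without IgG1 replicate 2, against -0.128 and 0.012 over all genes. The fibroblast and endothelial sums parted these groups in the same direction as Wnt2b, Dkk3 and Sfrp2. Of the markers, Col1a1 and Col3a1 of fibroblasts, Cldn5 of endothelium and Cd68 of leukocytes were lower in every anti-PD-1 tumor, and Cd3g alone was higher, against most of its list. Positive log2 fold changes were found for 0 of 6 luminal markers (-0.25), 1 of 6 basal (-0.21), 0 of 6 fibroblast (-0.13), 1 of 6 adipocyte (-0.69), 1 of 6 skeletal muscle (-0.79), 0 of 6 endothelial (-0.43), 1 of 5 T cell (-0.47), 2 of 2 salivary (0.90), 1 of 6 leukocyte (-0.41) and 5 of 6 proliferation (0.28). The part of these cells in the members' levels was not tested.

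With doxorubicin, 38 members were tested for DOX/anti-PD-1 over DOX/IgG1. Again 0 were called by limma, as were 0 of 13946 genes (0.00%), and 3 (7.89%) had an unadjusted p below 0.05, against 4.70% of all genes. Fzd1 was higher without overlap (1 member, 4.27% of all genes), and Wnt11, Lgr5, Dkk3, Lrp6 and Fzd3 were lower (5 members or 13.2%, against 5.95% of all genes). The median log2 fold change was -0.21 over the members and -0.04 over all genes. With 1 tumor left out the members' median lay between -0.311 without DOX/anti-PD-1 replicate 2 and -0.048 without DOX/anti-PD-1 replicate 1. Beside these members, 2 of 6 luminal markers (-0.04), 4 of 6 basal (0.19), 4 of 6 fibroblast (0.24), 5 of 6 adipocyte (0.36), 3 of 6 skeletal muscle (0.02), 4 of 6 endothelial (0.14), 1 of 5 T cell (-0.52), 0 of 4 salivary (-2.71), 0 of 6 leukocyte (-0.25) and 6 of 6 proliferation (0.85) had positive log2 fold changes, and outside the salivary list Kdr of endothelium alone parted the groups, being lower. The part of these cells in the members' values was not tested.

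Over both chemotherapy arms, 0 of 41 members were called for anti-PD-1 by limma, as were 0 of 14735 genes (0.00%). At an unadjusted p below 0.05, 0 members were higher (1.78% of all genes) and 2 were lower (4.88%, against 2.91% of all genes). These were Dkk3, with a log2 fold change of -0.99 ± 0.25 (limma adjusted p = 0.668), and Sfrp2, with -0.94 ± 0.36 (limma adjusted p = 0.965). The median was -0.18 over the members and -0.03 over all genes, the members' being -0.093 without DOX/IgG1 replicate 1, -0.108 without DOX/IgG1 replicate 2, -0.116 without DOX/anti-PD-1 replicate 1 and -0.103 with no minimum on expression. The markers with positive log2 fold changes were 1 of 6 luminal markers (-0.12), 3 of 6 basal (0.01), 1 of 6 fibroblast (-0.11), 3 of 6 adipocyte (-0.04), 3 of 6 skeletal muscle (-0.17), 1 of 6 endothelial (-0.29), 1 of 5 T cell (-0.63), 1 of 4 salivary (-1.10), 0 of 6 leukocyte (-0.33) and 6 of 6 proliferation (0.62), and their part in the members' values was not tested.

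Whether the doxorubicin effect differed between the antibodies was tested as an interaction. It called 0 of 41 members by limma, against 1 of 14735 genes (0.00679%), Bpifa2, a call that most of the alternatives do not keep. At an unadjusted p below 0.05 there were 2 members (4.88%), Lgr5 and Fzd3, against 4.71% of all genes, a share near that of all genes. The median was -0.08 over the members and -0.01 over all genes, and with 1 tumor left out the members' lay between -0.187 without DOX/anti-PD-1 replicate 2 and 0.204 without DOX/anti-PD-1 replicate 1. For Fzd3 the interaction was -0.86 ± 0.40 (limma adjusted p = 0.993), and -0.62 ± 0.38 without DOX/IgG1 replicate 1.

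Another 63 genes of the pathway were followed in lists by function, and 56 of them were tested over the 12 tumors. By limma 0 were called in each of the 7 comparisons. For doxorubicin over both antibodies, 4 were higher (7.14%, against 8.82% of all genes) and 1 was lower (1.79%, against 3.16% of all genes) at an unadjusted p below 0.05, shares below those of all genes, and the median log2 fold change was 0.16, against 0.12 over all genes. In the list of WNT secretion, ligand clearance and co-receptors, of which Wls, the carrier of WNT proteins, was the most abundant, 14 of 18 were tested with 0 in either direction. Of the 17 genes of dishevelled and the destruction complex, led by Csnk1a1, 2 were higher, Nkd1, a feedback inhibitor (0.73 ± 0.31, limma adjusted p = 0.37), and Tnks2, a poly-ADP-ribose polymerase that marks axin for breakdown (0.46 ± 0.18, limma adjusted p = 0.329). Of the 12 nuclear co-factors, led by Tle3, 1 was higher, Pygo1 (0.72 ± 0.30, limma adjusted p = 0.358). With a pseudocount of 0.1 the log2 fold changes of Nkd1 and Pygo1 were 1.29 and 1.10. Of 10 genes of planar cell polarity, led by Celsr2, 9 were tested with 0 in either direction. Of 10 known targets of beta-catenin, led by Cd44, 7 were tested and 2 were higher, Nkd1, which stands in both lists, and Ccnd1 (0.54 ± 0.21, limma adjusted p = 0.335), while Cd44 was lower (-0.49 ± 0.18, limma adjusted p = 0.319). Sost and Sp5 were listed at 0 in every tumor.

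For anti-PD-1 over both chemotherapy arms, 0 of the 56 were higher (1.78% of all genes) and 3 were lower (5.36%, against 2.91% of all genes) at an unadjusted p below 0.05, and 0 were called by limma. These were the polarity genes Vangl2 (-0.75 ± 0.30) and Celsr1 (-0.63 ± 0.29) and the dishevelled inhibitor Nkd2 (-0.51 ± 0.23 on the log2 scale), with limma adjusted p = 0.986, 0.999 and 0.999. DOX/IgG1 replicate 1 was the highest of the 12 tumors for Vangl2 and Celsr1, and without it their values were -0.52 ± 0.26 and -0.39 ± 0.23.

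In the interaction, 1 of the 56 (1.79%, against 4.71% of all genes) had an unadjusted p below 0.05, the R-spondin receptor gene Lgr6. Lgr6 was at 53.5, 34.7 and 56.2 TPM in IgG1, 24.6, 28.2 and 26.1 TPM in anti-PD-1, 11.9, 20.8 and 27.4 TPM in DOX/IgG1 and 43.1, 73.1 and 68.7 TPM in DOX/anti-PD-1. The DOX/IgG1 tumors were all below the IgG1 tumors, and the DOX/anti-PD-1 tumors were all above the anti-PD-1 tumors. How many of all genes part in opposite directions in this way was not counted. The log2 fold change of doxorubicin was -1.27 ± 0.36 under IgG1 (adjusted p = 0.479) and 1.16 ± 0.27 under anti-PD-1 (adjusted p = 0.429), and the difference was 2.43 ± 0.45 (adjusted p = 0.548), all by limma. For Lgr5 the 3 DOX/IgG1 tumors were above the IgG1 tumors, and anti-PD-1 and DOX/anti-PD-1 overlapped.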

How the data were processed

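RNA was measured in 12 tumors, grouped by the treatment in the labels. The deposited values, which the authors made with STAR and RSEM on mm10 (versions not given in the sources used here), are log2(TPM + 1) written with decimal commas. The scale was checked on the values: converted back to TPM, as done here, they are multiples of 0.01 (tolerance 0.0002 TPM). Adapters had been trimmed with skewer. The files used here hold no counts, so depth is unknown. Genes with at least 1 TPM in 3 or more of the tumors compared were fitted on log2(TPM + 1) with limma 3.58.1 in R 4.3.3 (eBayes with trend) and adjusted by Benjamini-Hochberg over all genes tested. A call needed an adjusted p under 0.1 with a log2 fold change beyond 1 either way. Pairs of groups were fitted alone, and doxorubicin, antibody and their interaction over all 12 tumors. The members and lists were chosen with earlier results of these data known. Named genes were the 12 members of highest mean TPM, called members, up to 4 per direction and comparison with the largest change among those whose groups do not overlap (over 12 tumors, with an unadjusted p below 0.05), up to 4 for the interaction, Ctnnb1, Axin2, Lgr5, Lef1, Tcf7 and Tcf7l2, and up to 3 other pathway genes per direction and fit over 12 tumors. Other members are given by values or ranges. Alternatives were pseudocounts of 0.1 and 0.5, no minimum, a minimum of 5 TPM, all tumors in 1 fit, a replicate block, scaling by the median of ratios, no trend and leaving out each tumor. Promoters came from RefSeq (GRCm38.p6). Tables and plots used Python 3.11.15, numpy 2.4.6, pandas 2.3.3 and matplotlib 3.10.9.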

Additional observations from a re-analysis of the deposited data

Results flagged for a closer look

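The effect of doxorubicin under anti-PD-1 was compared with that under IgG1 by the interaction in limma. Given here are 4 genes that had an unadjusted p below 0.05 or were called. Such a p was found for 2 of 41 members (4.88%) and 1 of 56 other pathway genes (1.79%). Over all genes it was 4.71%, which the share of the members is near. For Lgr5 the difference was -2.53 on the log2 scale (adjusted p = 0.993), and all 3 DOX/IgG1 tumors were above the IgG1 tumors while anti-PD-1 and DOX/anti-PD-1 overlapped. For Fzd3 it was -0.86 (adjusted p = 0.993), or -0.62 without DOX/IgG1 replicate 1, and all 3 DOX/anti-PD-1 tumors were below the DOX/IgG1 tumors. For Lgr6 it was 2.43 (adjusted p = 0.548), and each of the 3 treated tumors was below its control group under IgG1 and above it under anti-PD-1. These 3 differences fail the correction for multiple tests, and how many of all genes part in opposite directions as Lgr6 does was not counted. For Bpifa2 it was -4.73 (adjusted p = 0.0909), which passed, but the fitted value depends on the pseudocount, since the gene is listed at 0 in all 9 tumors outside DOX/IgG1. The call was lost with pseudocounts of 0.1 and 0.5, a minimum of 5 TPM, the replicate block and the median of ratios, and in the fits that left out any 1 tumor but DOX/IgG1 replicate 1. In these fits its adjusted p ranged from 0.105 to 0.997.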

How the results depend on the processing

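The 58 log2 fold changes named or printed had 910 values under the alternatives, of which 830 kept their direction and their side of the threshold, 2 passed it newly, 73 lost it and 5 changed sign. Those that lost it belong to the called genes, none of them a member. Only these could lose a call: 5 for DOX/IgG1 against IgG1, 3 for doxorubicin over both antibodies and 1 for the interaction. Most of the 830 come from results that were not called, so that count does not measure how stable the calls are. The sign changed for Wnt5a in DOX/IgG1 against IgG1, at -0.033 after scaling by the median of ratios and from -0.598 to 1.225 with 1 tumor left out. Outside leave-one-out, 53 alternative fits called 0 members by limma. Of 60 fits that left out 1 tumor, 1 called members, so the count for doxorubicin over both antibodies ranged from 0 to 2, the latter without DOX/IgG1 replicate 1 (Frzb 1.51, Dkk3 1.05). That fit called 212 of 14735 genes, against 3 with all tumors kept. The members' median for DOX/IgG1 against IgG1 was 0.134 with no minimum on expression and 0.108 after scaling by the median of ratios, and from 0.065 to 0.26 with 1 tumor left out. With 1 tumor left out the median ranged from -0.175 to -0.02 for anti-PD-1 against IgG1, from -0.008 to 0.13 for DOX/anti-PD-1 against anti-PD-1, from -0.311 to -0.048 for DOX/anti-PD-1 against DOX/IgG1, from -0.011 to 0.134 for doxorubicin, from -0.21 to -0.093 for anti-PD-1 over both arms and from -0.187 to 0.204 for the interaction. Over all genes, the 5 calls for DOX/IgG1 against IgG1 became 2 with the replicate block, of which 1 was among the 5, and 13 with no trend. The 3 calls for doxorubicin over both antibodies became 0 with no trend, 1 with the replicate block, 7 with a pseudocount of 0.5, 13 at a minimum of 5 TPM and 14 after scaling by the median of ratios. The 1 call of the interaction became 3 with no minimum or no trend and 0 in most other alternatives. In each of the other 3 comparisons of groups the count was 0 and reached 4 in some fit with 1 tumor left out. With no trend it was 3 for DOX/anti-PD-1 against anti-PD-1, 1 for anti-PD-1 against IgG1 and 3 for DOX/anti-PD-1 against DOX/IgG1. The last was also 3 after scaling by the median of ratios and 2 with all 12 tumors in 1 fit. For anti-PD-1 over both arms the count was 0 in every fit. The causes were not tested.

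The labels do not say that a replicate number marks a shared animal or batch. Correlations of tumors with the same number, after removing group means, were from -0.096 to 0.134, with 4 of 18 pairs above 0.1, and from -0.19 to 0.113 with another number. Of the 12 tumors, 8 correlated best with a tumor of their own number. Each other group holds a single tumor of that number among its 3, and whether 8 exceeds what unrelated numbers would give was not tested. With the replicate block in the fit, 0 members were called in each comparison. Read depth is unknown, so its limit on low values cannot be given.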
